A study of Mus musculus with 18 samples.

Results

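Wnt ligands, their receptors, their secreted inhibitors and a few of their best known target genes were followed through the disease course in mouse sciatic nerve and dorsal root ganglia (DRG). The members were chosen by gene symbol: all Wnt, Fzd, Sfrp, Dkk, Lgr4 to Lgr6 and Rspo genes of the table, with Wif1, Frzb, Notum, Lrp5, Lrp6, Axin2, Lef1 and Tcf7. This gave 52 of the 28684 genes counted. The symbol rule uses no measured value, although the set was proposed with earlier results of these data known. Of the 52, 42 had at least 10 counts in 3 or more of the 18 libraries and were tested, as were 17514 genes of the whole table. The 42 comprised 13 of 19 Wnt ligands, 9 of 10 Frizzled receptors, 2 of 2 LRP co-receptors, 8 of 11 secreted inhibitors, 4 of 4 R-spondins, 3 of 3 LGR receptors and 3 of 3 target genes or nuclear factors.

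Bulk RNA was sequenced from C57BL/6 mouse sciatic nerve, which contains axons, Schwann cells and connective tissue, and from DRG L3-L5, where sensory neurons have their somata. Mice of the no disease groups, of peak disease at PID21 and of recovery at PID42 each gave 3 libraries per tissue, or 6 groups in all. The means of inducing disease, the meaning of PID and the age of the mice were not stated by the labels. The labels give no genotype beyond the strain and no link from libraries to animals, so each p-value reflects the spread among these libraries alone, and that spread may be technical.

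Wnt proteins are lipid-bearing secreted ligands that bind Frizzled receptors together with the LRP5 or LRP6 co-receptor, and beta-catenin then acts with TCF/LEF factors on target genes. Secreted inhibitors act outside the cell: WIF1 and the SFRP proteins, including Frzb, bind Wnt ligands, and several DKK proteins bind the LRP co-receptors. R-spondins bind LGR receptors and keep Frizzled receptors on the cell surface. In Schwann cells, Wnt and beta-catenin signalling is known to promote myelin gene expression.

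Total counts per library ranged from 13686465 to 23435562. Levels below are CPM, read counts as a rate per library total, with that total scaled by TMM factors over all 18 libraries, and differences are log2 fold changes ± SE from edgeR's quasi-likelihood test, with p-values adjusted over the 17514 genes and called at an adjusted p under 0.05. Of 12 sensory neuron markers, the summed level was 10822 to 12319.5 CPM in DRG and 114 to 466 CPM in nerve with no disease. Schwann cell markers were present in every library, at 11815 to 19510.3 CPM in nerve with no disease. Single libraries differed in several marker sums. Skeletal muscle markers summed to 11.9, 3.79 and 282 CPM in DRG with no disease and to 193, 741 and 360 CPM in nerve with no disease. The libraries taken here to stand apart were nerve no disease replicate 1 and DRG recovery replicate 1. The first had a neuron marker sum of 466 CPM, above the others of its group. The second had a macrophage marker sum of 237 CPM, near the no disease range of 194 to 210.3 CPM. Calls lost when 1 of these libraries was left out are named below. Other values include both unless stated. Ribosomal RNA genes took 0.596%, 2.14% and 1.19% of counts in nerve at peak and 3.30%, 20.8% and 8.93% with no disease, without overlap. Without ribosomal RNA and mitochondrial genes in the fit, 22 members were called in nerve at peak, against 20 with them.

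Without disease, most of the pathway's ligands, receptors and inhibitors were higher in nerve than in DRG. Of the 42 members, 27 were higher and 7 lower in nerve, where 37.0% of all tested genes were called higher and 36.7% lower. The median member difference, nerve over DRG, was 1.06 on the log2 scale, against 0.03 over all genes. Of the 42, 35 met the count limit in both tissues, and of these 24 were higher and 4 lower in nerve. Wnt2, Wnt7b, Wnt10b and Fzd9 met it in nerve alone, and Wnt4, Wnt7a and Rspo4 in DRG alone, so they entered the test through the tissue where they were high, and their differences are a description. Frizzled receptors were higher in nerve for 8 of 9 members, from 0.45 ± 0.16 for Fzd8 to 3.20 ± 0.24 for Fzd2, and both LRP co-receptors were higher. Of the ligands 8 were higher, 3 lower and 2 not called. The 8 include Wnt2, Wnt7b and Wnt10b, which met the limit in nerve alone, and of the 3 only Wnt16 met it in both tissues. Of 8 inhibitors 6 were higher and only Dkk3 was lower (-0.38 ± 0.12, adjusted p = 0.0102), a call lost without DRG no disease replicate 3 (adjusted p = 0.059). Those of Wnt4 and Fzd8 were each lost when 1 of 2 libraries was left out, at adjusted p of 0.0511 to 0.0636.

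The R-spondins divided between the tissues. Rspo1 was higher in nerve, at 24.3, 27.9 and 28.9 CPM, against 4.75, 5.49 and 5.78 CPM in DRG (log2 fold change 2.34 ± 0.16, adjusted p = 1.52e-09). Rspo2 was higher in DRG, with 2.69, 0.444 and 0.374 CPM in nerve and 52.7, 54.3 and 54.2 CPM in DRG (log2 fold change -5.40 ± 0.36, adjusted p = 1.29e-09). Without nerve no disease replicate 1, the highest of the nerve libraries, its log2 fold change was -7.03. Rspo4 had 3 counts over the nerve libraries and 102 over the DRG libraries, a ratio of 0.034 with a 95% counting interval of 0.00691 to 0.102. Nerve thus lay above DRG for Rspo1 and below it for Rspo2 and Rspo4. Among the ligands, Wnt10b, Wnt10a, Wnt2 and Wnt2b were higher in nerve (log2 fold changes 4.94 ± 0.50, 3.18 ± 0.37, 3.14 ± 0.51 and 2.23 ± 0.15), and Wnt7a, Wnt4 and Wnt16 were lower (-4.42 ± 0.74, -2.45 ± 0.82 and -2.07 ± 0.47). Sfrp2 and Dkk2 had the largest positive differences of the inhibitors, at 6.76 ± 0.60 and 4.25 ± 0.38.

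**Figure D1:**
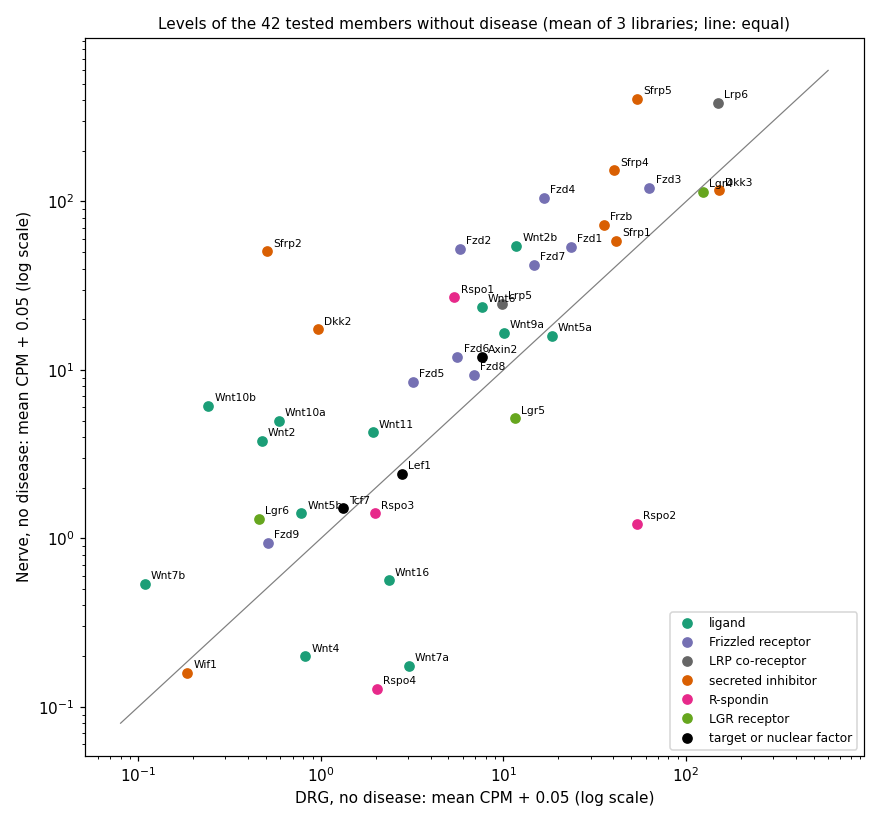
Mean CPM + 0.05 of the 42 tested members with no disease in nerve (y axis, log scale) against DRG (x axis, log scale), 3 libraries each, coloured by role. Most points lie above the line of equal levels, and Rspo2, Rspo4 and Wnt7a lie farthest below it.

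Per kilobase of exon, secreted inhibitors were the most abundant members of both tissues. In nerve with no disease the 5 highest levels, in CPM per kilobase as mean ± SD over 3 libraries, were Sfrp5 at 214 ± 32.1, Sfrp4 at 36.5 ± 3.87, Dkk3 at 34.8 ± 4.69, Lrp6 at 28.2 ± 4.19 and Sfrp2 at 23.5 ± 9.14. In DRG with no disease they were Dkk3 at 45.3 ± 2.85, Sfrp5 at 28.5 ± 3.50, Lgr4 at 21 ± 1.06, Frzb at 11 ± 1.04 and Lrp6 at 10.9 ± 0.592. Of the 5 highest members in nerve, 4 were secreted inhibitors. The 10 members under the count limit were Wnt1, Wnt3, Wnt3a, Wnt8a, Wnt8b, Wnt9b, Fzd10, Dkk1, Dkk4 and Notum. Their highest count in any library was 11, for Fzd10 in DRG, and Wnt3 reached 9 in DRG. Wnt1 and Wnt3a, which are known to activate beta-catenin, had at most 2 counts in any library.

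In nerve at peak disease 6 of 8 secreted inhibitors and 5 of 13 ligands fell, while 1 inhibitor, Wif1, rose. Of the 42 members 5 rose and 15 fell, where 13.8% of all tested genes rose and 10.8% fell. As shares, 11.9% of members rose, close to the background, and 35.7% fell. The 5 that rose include Wif1, which met the count limit through peak and recovery libraries alone. The median member change, peak over no disease, was -0.50 on the log2 scale, against 0.00 over all genes. In these bulk samples, fewer cells of a type and less RNA per cell cannot be told apart.

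Wif1 (ENSMUSG00000020218, chromosome 10, 121033960 to 121100650, plus strand of GRCm38), a secreted protein that binds Wnt ligands, had 2, 1 and 2 counts in the no disease nerve libraries. Its levels in nerve were 0.115, 0.0889 and 0.125 CPM with no disease, then 21.1, 16.6 and 17.9 CPM at peak and 0.636, 0.892 and 0.216 CPM at recovery. Every peak library lay far above every no disease library, and the recovery libraries lay between. The 1238 counts at peak against 5 with no disease gave a ratio of 167 after scaling, with a 95% counting interval of 71.2 to 514 that covers counting error only. The log2 fold change was 7.36 ± 0.43, adjusted p = 9.22e-06, and over 14 alternative settings it ranged from 7.07 to 7.47. Wif1 reached 10 counts in 8 libraries, all of peak or recovery. It thus entered the tests through the stages where it was high, and its differences from no disease are a description.

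Of the 8 secreted inhibitors tested, Wif1 rose, 6 fell and Dkk2 was not called (-0.83 ± 0.28, adjusted p = 0.0514). Sfrp5 (ENSMUSG00000018822, chromosome 19, 42197971 to 42202252, minus strand), a secreted Frizzled-related protein and the most abundant member in nerve per kilobase, had 338, 435 and 450.0 CPM with no disease, then 198, 134 and 261 CPM at peak and 301, 302 and 291 CPM at recovery. Its peak libraries all lay below its no disease libraries but spread widely among themselves (log2 fold change -0.98 ± 0.21, adjusted p = 0.00889). Sfrp1 (ENSMUSG00000031548, chromosome 8, 23411502 to 23449632, plus strand), another Wnt-binding protein of the family, had 60.6, 59.7 and 54.9 CPM with no disease, then 23.6, 21.8 and 24.2 CPM at peak and 33.4, 36.7 and 35.7 CPM at recovery. The 3 groups did not overlap, and the libraries of each group were close together (log2 fold change -1.26 ± 0.09, adjusted p = 1.47e-05).

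Sfrp2 (ENSMUSG00000027996, chromosome 3, 83766321 to 83774316, plus strand) had 72.6, 44.9 and 34.5 CPM with no disease, then 14, 8.39 and 11 CPM at peak and 28, 35.6 and 35.5 CPM at recovery. No disease replicate 1 was the highest, and all peak libraries lay below all others (log2 fold change -2.11 ± 0.26, adjusted p = 4.25e-04). Frzb (ENSMUSG00000027004, chromosome 2, 80411970 to 80447625, minus strand), also called Sfrp3, had 51, 88.4 and 78 CPM with no disease, then 22.6, 9.69 and 28.3 CPM at peak and 65.9, 60.01 and 75 CPM at recovery. Its lowest value was in peak replicate 2, and peak lay below no disease in all 3 libraries (log2 fold change -1.77 ± 0.34, adjusted p = 0.00435). Sfrp4 (ENSMUSG00000021319, chromosome 13, 19623104 to 19632994, plus strand) had 165, 159 and 134 CPM with no disease, then 65.9, 95.8 and 66.8 CPM at peak and 140.2, 123 and 123 CPM at recovery. Peak lay below no disease and below recovery without overlap (log2 fold change -0.94 ± 0.14, adjusted p = 0.00114), although in a single fit of all 18 libraries the call was lost (adjusted p = 0.135). Dkk3 (ENSMUSG00000030772, chromosome 7, 112116017 to 112159057, minus strand), a divergent member of the Dickkopf family, had 105, 135 and 111 CPM with no disease, then 58.9, 48.5 and 70.1 CPM at peak and 95.5, 98.9 and 85.6 CPM at recovery. Its peak libraries were again the lowest of the 9 (log2 fold change -0.91 ± 0.15, adjusted p = 0.00186). Dkk2, which binds LRP co-receptors, had 26.9, 11.7 and 13.4 CPM with no disease, then 10.9, 9.10 and 8.08 CPM at peak and 19.2, 25.4 and 18.3 CPM at recovery. All peak libraries lay below all no disease libraries, of which replicate 1 was the highest.

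**Figure D2:**
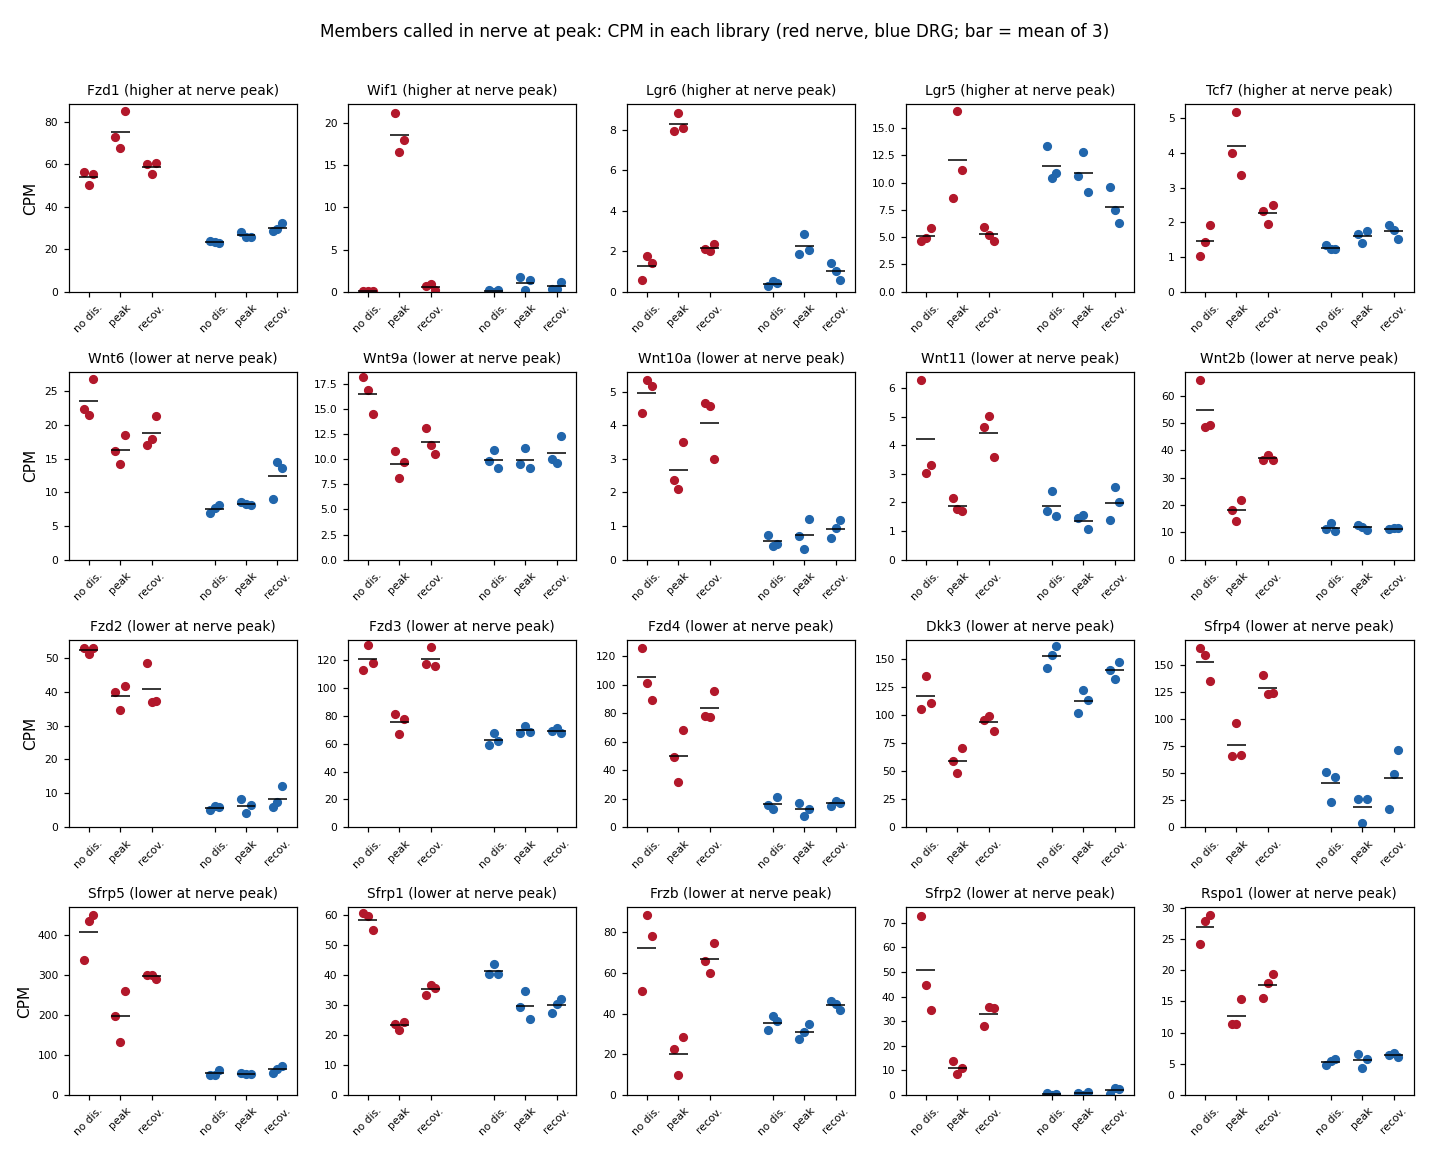
CPM (y axis, linear) in each library for the 20 members called in nerve at peak, in nerve (red) and DRG (blue) with no disease, at peak and at recovery; bars are means of 3 libraries. The 5 members that rose come first; the 15 that fell have their lowest nerve mean at peak, and Sfrp1 and Dkk3 were also called lower in DRG at peak.

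The 250 bases before the RefSeq start of 4 of these genes are printed to show the regulatory sequence of members that moved in opposite directions. Wif1 and Lgr6 were the members with the largest rises, and Sfrp2 and Wnt11 fell at peak and were higher again at recovery. The windows are from RefSeq on GRCm38.p6, at chr10:121033754-121034003, plus strand for Wif1, chr1:135105277-135105526, minus strand for Lgr6, chr3:83766071-83766320, plus strand for Sfrp2 and chr7:98834862-98835111, plus strand for the upstream of 2 listed Wnt11 starts, all 5′ to 3′ on the gene's strand. Capitals mark a match to a TCF/LEF motif, searched as CTTTGAT or CTTTGAA on both strands.
Wif1: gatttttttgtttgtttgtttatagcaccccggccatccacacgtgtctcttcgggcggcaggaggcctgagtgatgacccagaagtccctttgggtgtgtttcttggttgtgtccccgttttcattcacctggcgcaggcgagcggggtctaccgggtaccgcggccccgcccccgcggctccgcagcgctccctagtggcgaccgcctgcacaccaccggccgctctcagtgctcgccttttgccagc
Lgr6: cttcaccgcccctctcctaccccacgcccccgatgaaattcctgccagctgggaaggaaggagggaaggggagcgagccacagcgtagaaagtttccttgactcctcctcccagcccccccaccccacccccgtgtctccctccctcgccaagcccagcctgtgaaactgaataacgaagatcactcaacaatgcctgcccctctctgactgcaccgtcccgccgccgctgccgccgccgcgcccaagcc
Sfrp2: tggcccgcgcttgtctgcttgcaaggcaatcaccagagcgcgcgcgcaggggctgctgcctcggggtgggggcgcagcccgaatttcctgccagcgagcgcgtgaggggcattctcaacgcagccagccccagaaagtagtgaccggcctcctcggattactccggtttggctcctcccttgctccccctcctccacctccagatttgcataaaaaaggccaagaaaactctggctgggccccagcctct
Wnt11: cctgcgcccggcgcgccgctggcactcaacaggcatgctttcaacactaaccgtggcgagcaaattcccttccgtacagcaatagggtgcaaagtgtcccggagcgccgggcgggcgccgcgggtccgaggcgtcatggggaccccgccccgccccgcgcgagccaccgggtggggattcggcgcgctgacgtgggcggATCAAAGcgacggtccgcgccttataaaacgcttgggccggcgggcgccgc
Wnt11 holds 1 match, on the minus strand of its gene and beginning 51 bases before the start, and these letters are not in the other 3 windows. The window of the other listed Wnt11 start holds none. Frzb and Wnt2b, which fell by more than Wnt11 in nerve at peak, hold none in their windows. RefSeq windows of 300 bases (250 before and 50 after the start) were found for 34 of the 52 members. Among these 34, 3 held a match (Wnt11, Wnt5b and Dkk1), or 8.82%, against 9.88% of 27025 genes, so the motif was about as frequent in members as in genes at large. Member windows had a median GC content of 67.3%, against 52.7% over all windows.

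Among the ligands none rose and 5 of 13 fell in nerve at peak. Wnt2b (ENSMUSG00000027840, chromosome 3, 104945272 to 104961921, minus strand), which is known to signal through beta-catenin, had 65.9, 48.6 and 49.4 CPM with no disease, then 18.2, 14 and 21.9 CPM at peak and 36.5, 38.4 and 36.4 CPM at recovery. The 3 groups did not overlap, with recovery between (log2 fold change -1.53 ± 0.16, adjusted p = 1.82e-04). Wnt9a had 18.2, 17 and 14.5 CPM with no disease, then 10.8, 8.12 and 9.71 CPM at peak and 13.2, 11.5 and 10.6 CPM at recovery. Its peak libraries lay below its no disease libraries (log2 fold change -0.73 ± 0.14, adjusted p = 0.00529). Wnt11, best known for beta-catenin-independent signalling, had 6.31, 3.02 and 3.30 CPM with no disease, then 2.15, 1.79 and 1.71 CPM at peak and 4.66, 5.04 and 3.59 CPM at recovery. No disease replicate 1 was the highest, and without it the change was smaller and not called (log2 fold change -0.71, adjusted p = 0.0634), against -1.10 ± 0.29, adjusted p = 0.0206 with it. Without peak replicate 2 the adjusted p was 0.0546.

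The 2 other ligands that fell were close to the threshold. Wnt6 had 22.4, 21.5 and 26.9 CPM with no disease, then 16.1, 14.2 and 18.5 CPM at peak and 16.9, 17.9 and 21.4 CPM at recovery (log2 fold change at peak -0.47 ± 0.15, adjusted p = 0.0435). Wnt10a had 4.36, 5.33 and 5.17 CPM with no disease, then 2.38, 2.11 and 3.50 CPM at peak and 4.66, 4.56 and 2.99 CPM at recovery (log2 fold change at peak -0.82 ± 0.26, adjusted p = 0.043). For both genes every peak library lay below every no disease library, yet the call was lost without no disease replicate 2 or 3 or without peak replicate 1 or 2, at adjusted p of 0.0619 to 0.154 for Wnt6 and 0.11 to 0.122 for Wnt10a. The other 8 tested ligands were not called. They included Wnt5a, a ligand best known for beta-catenin-independent signalling whose counts may hold reads of an overlapping gene on the other strand, at 11.5 ± 1.35 CPM at peak and 15.9 ± 7.77 CPM with no disease (-0.41 ± 0.27, adjusted p = 0.311), and Wnt10b at -0.94 ± 0.31, adjusted p = 0.0508. Wnt2, Wnt4, Wnt5b, Wnt7a, Wnt7b and Wnt16 had adjusted p of 0.447 to 0.937. The summed ligand level was 69.8, 61.6 and 74.3 CPM at peak and 160.4, 118 and 119 CPM with no disease.

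Of the 9 Frizzled receptors 1 rose and 3 fell. Fzd1 (ENSMUSG00000044674, chromosome 5, 4753839 to 4758035, minus strand) had 56.5, 50.05 and 55.2 CPM with no disease, then 72.7, 67.4 and 85 CPM at peak and 60.2, 55.1 and 60.5 CPM at recovery. Peak was above both other groups without overlap (log2 fold change 0.54 ± 0.10, adjusted p = 0.0041). Fzd4, which is also the receptor for norrin in blood vessels, had 126, 101 and 89.3 CPM with no disease, then 49.2, 31.8 and 67.9 CPM at peak and 78.3, 77.3 and 95.7 CPM at recovery. Its peak libraries were the lowest and ranged widely (log2 fold change -1.01 ± 0.24, adjusted p = 0.0121). Fzd3, which is known for its part in axon guidance, had 113, 131 and 118 CPM with no disease, then 81.5, 67 and 78.1 CPM at peak and 117, 129.8 and 116 CPM at recovery. Peak lay below both other groups, which overlapped (log2 fold change -0.61 ± 0.10, adjusted p = 0.00245). Fzd2 had 52.9, 51.1 and 52.8 CPM with no disease, then 39.96, 34.7 and 41.7 CPM at peak and 48.3, 36.8 and 37.3 CPM at recovery, a small change (log2 fold change -0.36 ± 0.12, adjusted p = 0.044) whose call was lost without any 1 of the 3 no disease libraries or without peak replicate 1 or 2 (adjusted p 0.0689 to 0.122) and in a single fit of all 18 libraries (adjusted p = 0.135). Fzd5, Fzd6, Fzd7, Fzd8 and Fzd9 were not called, with adjusted p of 0.0593 to 0.441.

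Neither LRP co-receptor was called. Lrp6 had 452, 354 and 351 CPM with no disease, then 345, 366 and 336 CPM at peak and 359, 369.6 and 370.0 CPM at recovery. No disease replicate 1 was the highest of the 9 libraries, and the log2 fold change at peak was -0.08 ± 0.09, adjusted p = 0.598. Lrp5 had 29.2, 22.7 and 22.1 CPM with no disease, then 25.7, 27 and 26.1 CPM at peak and 21.3, 24.3 and 23.5 CPM at recovery (log2 fold change at peak 0.15 ± 0.11, adjusted p = 0.342). For both genes the peak and no disease libraries overlapped.

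Of the 3 LGR receptors for R-spondins 2 rose, and of the 4 R-spondins 1 fell. Lgr6 (ENSMUSG00000042793, chromosome 1, 134983301 to 135105276, minus strand) had 0.573, 1.78 and 1.43 CPM with no disease, then 7.94, 8.83 and 8.08 CPM at peak and 2.12, 1.99 and 2.34 CPM at recovery. The 3 peak libraries were tightly grouped above all others (log2 fold change 2.81 ± 0.32, adjusted p = 2.71e-04). Lgr5 (ENSMUSG00000020140, chromosome 10, 115450311 to 115587780, minus strand), itself a known Wnt target in gut, had 4.64, 4.89 and 5.80 CPM with no disease, then 8.57, 16.6 and 11.1 CPM at peak and 5.93, 5.19 and 4.67 CPM at recovery. All peak libraries lay above the rest, and recovery lay within the no disease range apart from its highest library (log2 fold change 1.30 ± 0.24, adjusted p = 0.0035). Lgr4, the LGR receptor with the most counts, had 106, 114 and 121 CPM with no disease, then 93.1, 91.9 and 96 CPM at peak and 102, 109 and 99.7 CPM at recovery and was not called (-0.22 ± 0.09, adjusted p = 0.0942). Among the R-spondins Rspo1 fell, with 24.3, 27.9 and 28.9 CPM with no disease, then 11.3, 11.4 and 15.4 CPM at peak and 15.6, 18 and 19.4 CPM at recovery. Its 3 groups did not overlap, although peak replicate 3 came close to recovery replicate 1 (log2 fold change -1.02 ± 0.16, adjusted p = 0.00143). Rspo2, Rspo3 and Rspo4 were not called (adjusted p = 0.0512, adjusted p = 0.0638 and adjusted p = 0.634).

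Of the nuclear factors and targets, Tcf7 rose and Axin2 and Lef1 were not called. Tcf7 (ENSMUSG00000000782, chromosome 11, 52252371 to 52283014, minus strand), which encodes the TCF1 factor and is also a T cell gene, had 1.03, 1.42 and 1.93 CPM with no disease, then 3.99, 5.20 and 3.38 CPM at peak and 2.33, 1.94 and 2.51 CPM at recovery. Peak lay above both other groups (log2 fold change 1.57 ± 0.28, adjusted p = 0.00342). Of 8 T cell and lymphocyte markers 1 rose, with a median log2 fold change of 0.70 over the list. The summed level of these markers was 17.4, 26.3 and 15.5 CPM at peak and 4.82, 1.87 and 2.24 CPM with no disease, and its part in Tcf7 was not tested. Axin2, the feedback gene most often read as a reporter of beta-catenin activity, had 12.7, 11.1 and 11.7 CPM with no disease, then 10.8, 11.7 and 10.1 CPM at peak and 15.7, 13.2 and 13.8 CPM at recovery. Peak and no disease overlapped (-0.06 ± 0.11, adjusted p = 0.729). Lef1 had 1.49, 2.49 and 3.12 CPM with no disease, then 1.75, 1.90 and 2.14 CPM at peak and 2.86, 2.52 and 2.08 CPM at recovery, also with overlap (-0.23 ± 0.30, adjusted p = 0.616).

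Markers of several cell types moved in nerve at peak together with the members. Of 6 perineurial markers 5 fell, with summed levels of 597, 469 and 699.5 CPM at peak and 903, 940.4 and 962 CPM with no disease. Of 7 endothelial markers 4 fell, with sums of 247, 148 and 408 CPM at peak and 497, 537 and 537 CPM with no disease. Among the 3 peak libraries, sums for both lists were lowest in replicate 2 and highest in replicate 3. The mural (451, 405 and 626 CPM), adipocyte (725, 290 and 1413 CPM) and Schwann cell sums (14632, 10820.5 and 15566 CPM) had the same order. The other marker lists did not. Of the 20 members called at peak, 10 had that order, namely 9 of the 15 that fell (Wnt2b, Wnt6, Wnt10a, Fzd2, Fzd4, Sfrp1, Sfrp5, Frzb and Dkk3) and 1 of the 5 that rose (Fzd1). The other 10 did not, and Sfrp4 was highest in replicate 2. The share of all tested genes with that order was not counted, so the count is a description. Without peak replicate 2 the log2 fold changes of Frzb, Fzd4 and Sfrp5 were -1.45, -0.78 and -0.77.

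Of 12 fibroblast markers 5 rose and 4 fell, and their sum was 21854, 20194 and 17660.1 CPM at peak and 16033, 13986 and 12679.6 CPM with no disease. Of 12 macrophage markers 9 rose and 1 fell, with sums of 4025, 5991 and 2927 CPM at peak and 1574, 967 and 964 CPM with no disease. All 7 tested repair Schwann cell markers rose, with sums of 197 to 278 CPM at peak and 51.9 to 59.98 CPM with no disease. All 8 proliferation markers rose as well. None of 5 adipocyte markers was called (sums 290.4 to 1413 CPM at peak and 979 to 1578 CPM with no disease), 9 of 12 sensory neuron markers fell, 6 of 8 muscle markers fell, mural markers gave 1 rise and 2 falls of 6, satellite glia markers 4 rises and 1 fall of 7, and Schwann cell markers 5 rises of 12. No marker of these lists was at 0 in all 3 libraries of either group. The part of these cell types in the members' changes was not tested.

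**Figure D3:**
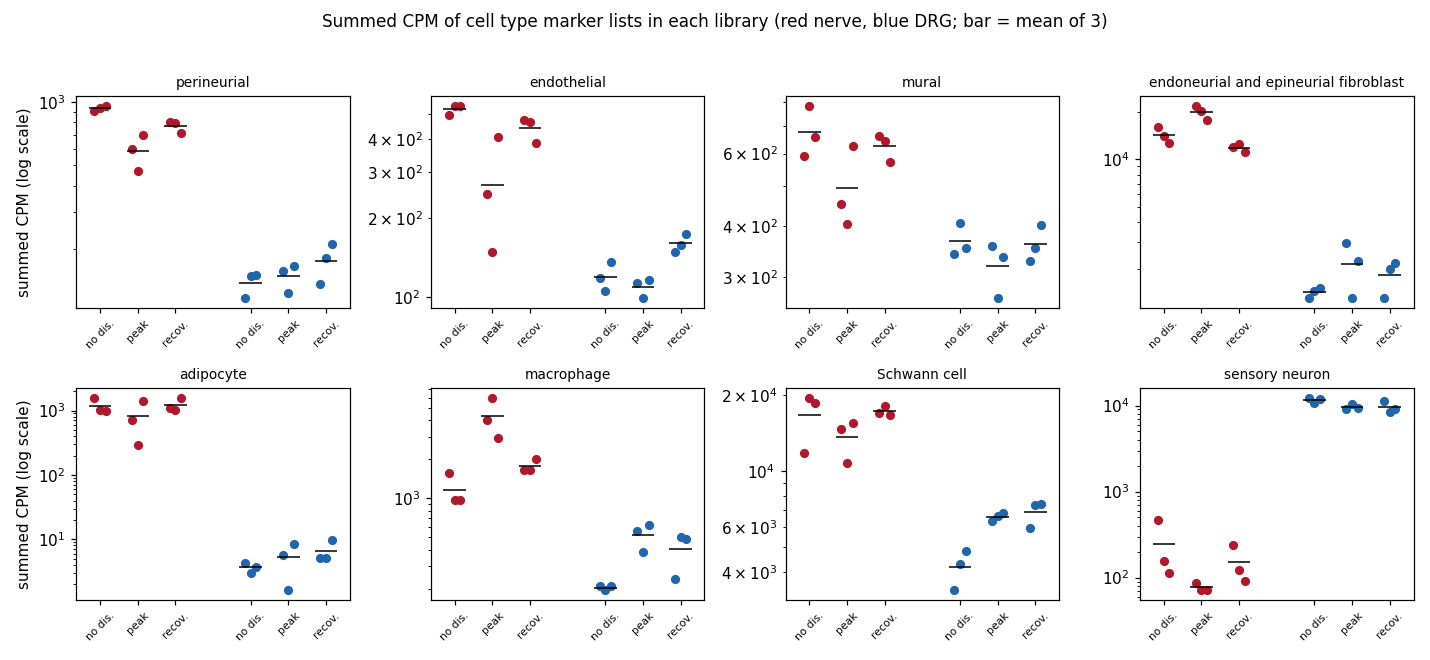
Summed CPM (y axis, log scale) of 8 cell type marker lists in each library of nerve (red) and DRG (blue) with no disease, at peak and at recovery; bars are means of 3 libraries. In nerve the perineurial and endothelial sums are lower at peak, the macrophage sum is higher, and peak replicate 2, the middle point, is the lowest for perineurial and endothelial genes.

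At recovery few members differed from no disease in nerve. Against no disease, no member was higher and 1 of 42 was lower, where 0.577% of all tested genes were higher and 0.331% lower; the median member difference was -0.11, against 0.01 over all genes. The 1 member was Sfrp1, lower at 33.4, 36.7 and 35.7 CPM at recovery than at 60.6, 59.7 and 54.9 CPM with no disease (log2 fold change -0.69 ± 0.08, adjusted p = 0.00798). Without no disease replicate 2 its log2 fold change was -0.67, adjusted p = 0.0551. At an unadjusted p under 0.05, 4 members were higher and 6 lower, beside 1176 higher and 1053 lower of the 17514 genes tested. DESeq2 called 3 members and limma-voom 1. Wif1 was above no disease in all 3 recovery libraries, with 34 counts against 5, a ratio of 4.98 with a counting interval of 1.94 to 16.3, but was not called (2.31 ± 0.60, adjusted p = 0.13). It was called without recovery replicate 3 (adjusted p = 0.0468) and by DESeq2 (adjusted p = 0.0431). Wif1 met the count limit through peak and recovery libraries alone, so these differences too are a description. Rspo1 and Wnt2b were among the members at lower levels in all 3 recovery libraries than in any no disease library, with log2 fold changes of -0.58 ± 0.16, adjusted p = 0.14 and -0.52 ± 0.16, adjusted p = 0.187. The authors' deposited table gives 4 members as lower at a q-value (adjusted p-value) under 0.05. These are Sfrp1 (2.34e-06), Wnt2b (0.00656), Rspo1 (0.0154) and Sfrp5 (0.0407).

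Against peak, 9 members were higher and 5 lower in recovering nerve, where 6.45% of all tested genes were higher and 10% lower. The median member difference, recovery over peak, was 0.35, against 0.00 over all genes. The 5 that were lower at recovery were Wif1 (-5.05 ± 0.33, adjusted p = 3.46e-05), Lgr6 (-1.97 ± 0.29, adjusted p = 0.00224), Lgr5 (-1.23 ± 0.23, adjusted p = 0.0072), Tcf7 (-0.91 ± 0.27, adjusted p = 0.0426) and Fzd1 (-0.39 ± 0.10, adjusted p = 0.0272). These are the 5 that had risen at peak; both comparisons share the peak libraries. The 9 that were higher held 6 of the 8 inhibitors, namely Frzb (1.69 ± 0.33), Sfrp2 (1.53 ± 0.26), Dkk2 (1.13 ± 0.27), Sfrp4 (0.73 ± 0.14), Dkk3 (0.62 ± 0.15) and Sfrp1 (0.57 ± 0.09). The others were the ligands Wnt11 (1.20 ± 0.29) and Wnt2b (1.00 ± 0.16) and the receptor Fzd3 (0.65 ± 0.10), all with adjusted p of 0.00224 to 0.0207.

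Sfrp5 was not among them, at 298 ± 6.34 CPM at recovery and 198 ± 63.7 CPM at peak (SD, n = 3 each; 0.56 ± 0.21, adjusted p = 0.101). Axin2 at 14.3 ± 1.31 CPM at recovery and 10.9 ± 0.800 CPM at peak missed the threshold (0.36 ± 0.11, adjusted p = 0.0524) and passed it in 4 alternative settings, at adjusted p of 0.0396 to 0.0493. All its recovery libraries also lay above its no disease libraries, without a call (0.30 ± 0.11, adjusted p = 0.294). Several of the 14 calls rested on single libraries. Those of Dkk2 (without peak replicate 2 or recovery replicate 2), Dkk3 (without peak replicate 1 or recovery replicate 1 or 2) and Wnt11 (without peak replicate 2 or recovery replicate 1 or 2) were lost, at adjusted p of 0.0555 to 0.0841, 0.0538 to 0.0743 and 0.0571 to 0.077. That of Fzd1 was lost without peak replicate 1 or 3 or any recovery library (0.0509 to 0.107), that of Tcf7 without peak replicate 1 or 2 or any recovery library (0.0767 to 0.145), and that of Sfrp4 in a single fit of all 18 libraries (0.287). Without recovery replicate 2 the count of members called was 9.

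Cell type markers moved between these stages too. In recovering nerve against peak, 8 of 12 macrophage, 8 of 8 proliferation and 5 of 7 repair Schwann cell markers were lower. Of 12 fibroblast markers 3 were higher and 5 lower, 5 of 12 sensory neuron, 2 of 6 perineurial and 2 of 7 endothelial markers were higher, and 4 of 7 satellite glia markers were lower. Macrophage sums were 1669, 1662 and 2011 CPM at recovery and 4025, 5991 and 2927 CPM at peak. Against no disease, 6 of 8 muscle markers were lower at recovery, with sums of 8.90, 8.45 and 13.5 CPM at recovery and 193, 741 and 360.2 CPM with no disease, and 2 markers each of macrophages, repair Schwann cells and proliferation were higher. Their part in the members' values was not tested.

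**Figure D4:**
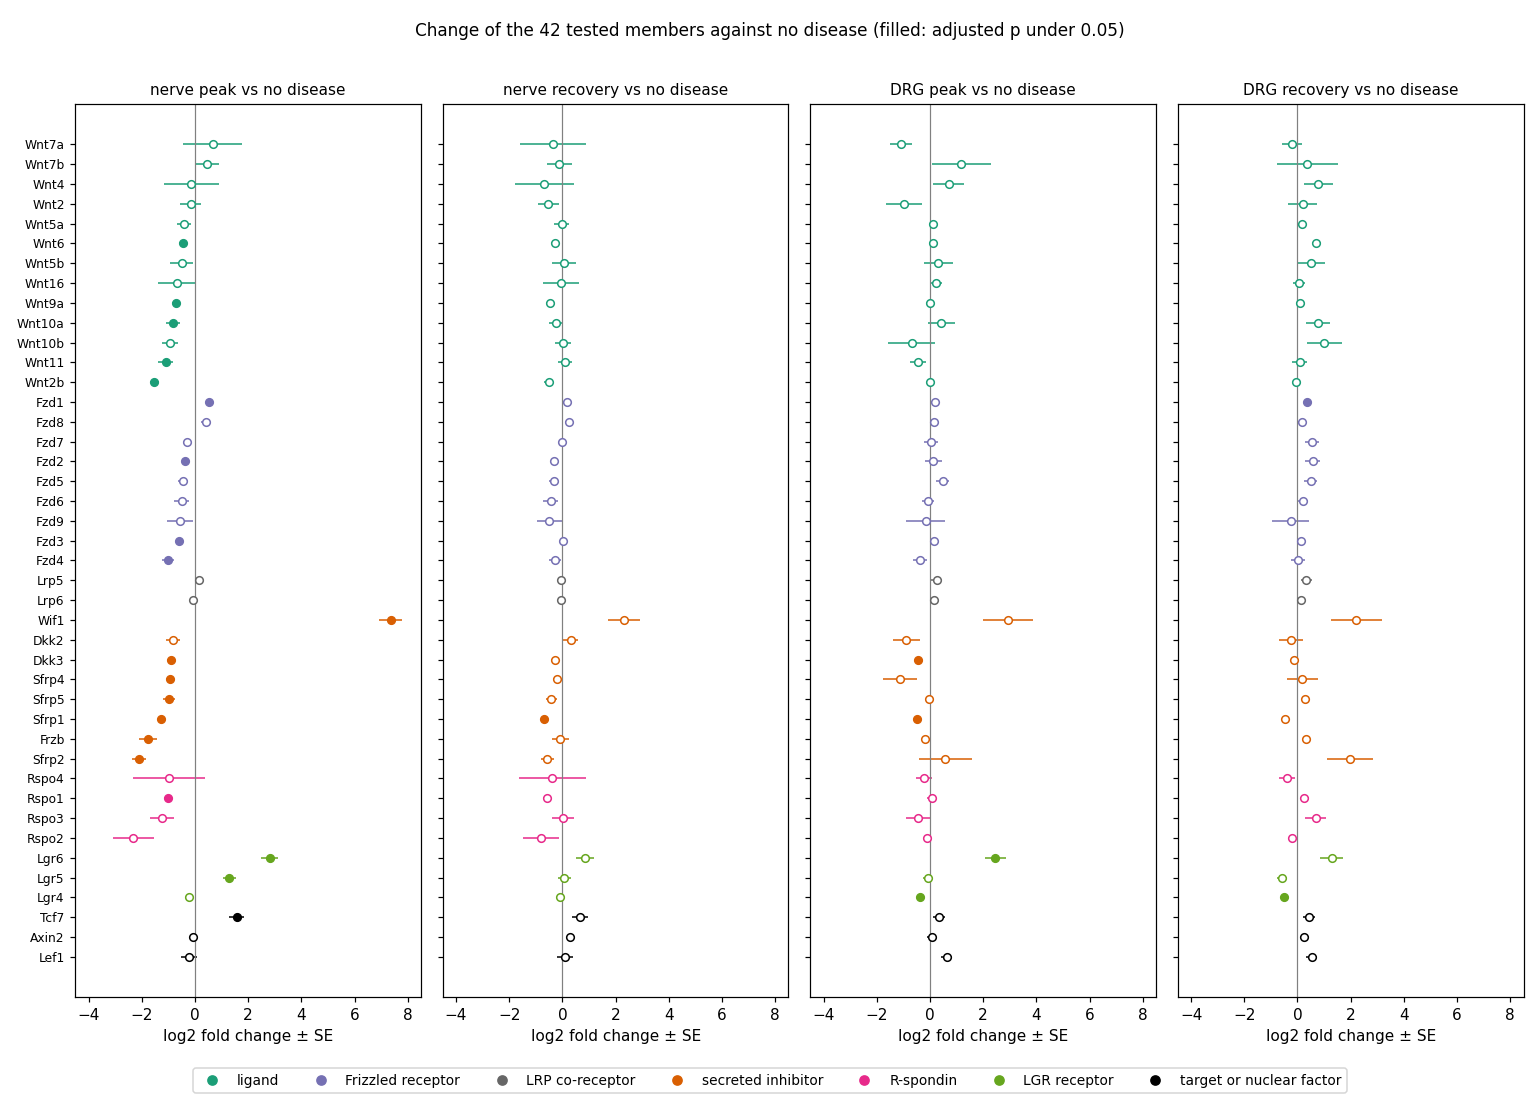
Log2 fold change ± SE (x axis) against no disease for the 42 tested members, grouped by role, for nerve at peak and recovery and DRG at peak and recovery; filled points have an adjusted p under 0.05. At peak in nerve the inhibitors other than Wif1 lie left of 0; at recovery nearly all members lie close to 0, and in DRG few points are filled.

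In DRG few members changed. At peak 1 of 42 rose and 3 fell, where 3.74% of all tested genes rose and 3.46% fell, and the median member change was 0.04, against 0.00 over all genes. The share that rose, 2.38%, and the share that fell, 7.14%, rest on 1 and 3 genes. Lgr6 rose here as in nerve, with 0.283, 0.525 and 0.413 CPM with no disease, then 1.88, 2.83 and 2.05 CPM at peak and 1.45, 1.01 and 0.565 CPM at recovery. Every peak library lay above every no disease library, at a lower level than in nerve (log2 fold change 2.46 ± 0.41, adjusted p = 0.00823). Lgr4 fell, with 119, 121 and 131 CPM with no disease, then 102, 91 and 95.2 CPM at peak and 90.4, 89.4 and 82.8 CPM at recovery (log2 fold change at peak -0.36 ± 0.07, adjusted p = 0.0189). Dkk3 fell, with 142, 153 and 161 CPM with no disease, then 102, 122 and 113 CPM at peak and 139.7, 132 and 147 CPM at recovery (log2 fold change at peak -0.44 ± 0.09, adjusted p = 0.0165). Sfrp1 fell, with 40.4, 43.5 and 40.1 CPM with no disease, then 29.4, 34.7 and 25.2 CPM at peak and 27.4, 30.4 and 31.9 CPM at recovery (log2 fold change at peak -0.47 ± 0.11, adjusted p = 0.0347). For all 3 genes that fell, peak and no disease did not overlap, but the changes were small.

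The calls of the 3 genes that fell in DRG depended on single libraries. Lgr4 lost its call without any 1 of the no disease libraries or without peak replicate 2 or 3 (0.0524 to 0.104). Dkk3 lost it without no disease replicate 2 or 3 or peak replicate 1 or 3 (0.0573 to 0.0902), and Sfrp1 without any no disease library or without peak replicate 1 or 3 (0.102 to 0.111). The number of members called was 2 without no disease replicate 1 or peak replicate 1, and 1 without no disease replicate 2 or 3 or peak replicate 3. Lgr6 was called in each of these, though only at an adjusted p of 0.0484 without no disease replicate 1. Its counts were low, and it reached 10 counts in 15 of the 18 libraries. Wif1 had 0.170, 0 and 0.236 CPM with no disease, then 1.74, 0.193 and 1.36 CPM at peak and 0.375, 0.380 and 1.17 CPM at recovery. Its 46 counts at peak against 7 with no disease gave a ratio of 7.90 with a counting interval of 3.54 to 20.7, but peak replicate 2 overlapped the no disease libraries and the gene was not called (2.94 ± 0.95, adjusted p = 0.0864). Without that library the log2 fold change was 3.46, adjusted p = 0.0393. It was also called with no filter (adjusted p = 0.0423) and in a single fit of all 18 libraries (adjusted p = 0.0468), and the authors' deposited table gives it a q-value of 0.00406. As in nerve, no library with no disease met the count limit for Wif1, so its differences from no disease are a description.

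DRG peak replicate 2 also had the lowest summed level of the fibroblast markers at peak (2924, 1313 and 2260.0 CPM), and the values of Sfrp4 (25.7, 3.99 and 26.1 CPM) and Sfrp2 (0.976, 0 and 1.14 CPM) were lowest there; the part of fibroblasts in these values was not tested. Of the DRG markers at peak, 9 of 12 macrophage genes and 6 of 12 Schwann cell genes rose, 4 of 12 fibroblast genes rose, and 2 of 12 sensory neuron genes fell. The co-receptors and targets were not called in DRG at any stage. Lef1 had 2.32, 3.21 and 2.65 CPM with no disease, then 3.63, 4.44 and 4.62 CPM at peak and 4.50, 3.68 and 3.65 CPM at recovery (0.63 ± 0.20, adjusted p = 0.0822 at peak). Its peak and recovery libraries all lay above its no disease libraries. Axin2 had 6.50, 9.04 and 7.19 CPM with no disease, then 7.60, 9.15 and 6.89 CPM at peak and 7.98, 9.55 and 9.52 CPM at recovery. Tcf7 had 1.36, 1.23 and 1.24 CPM with no disease, then 1.67, 1.42 and 1.74 CPM at peak and 1.93, 1.78 and 1.52 CPM at recovery. Axin2 overlapped between all stages, whereas both disease stages of Tcf7 lay above no disease by a small margin (0.33 ± 0.23, adjusted p = 0.413 at peak). Lrp6 had 140.5, 156 and 152 CPM with no disease, then 181, 145 and 172 CPM at peak and 158, 163 and 171 CPM at recovery, and Lrp5 had 9.16, 9.39 and 10.8 CPM with no disease, then 16.2, 8.76 and 9.999 CPM at peak and 11.8, 12.6 and 12.6 CPM at recovery. Both overlapped between peak and no disease (adjusted p = 0.332 and adjusted p = 0.477).

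At recovery 1 member was higher and 1 lower in DRG than with no disease, where 2.09% of all tested genes were higher and 0.799% lower. The median member difference was 0.22, against -0.01 over all genes. Fzd1 was higher, with 24, 23.3 and 22.9 CPM with no disease, then 28.2, 25.8 and 25.9 CPM at peak and 28.6, 29.5 and 32.1 CPM at recovery (log2 fold change at recovery 0.36 ± 0.08, adjusted p = 0.0427), and Lgr4 was lower (log2 fold change -0.50 ± 0.07, adjusted p = 0.0173). Recovery and no disease did not overlap for either. Of the DRG markers, 6 of 12 macrophage, 5 of 12 Schwann cell, 2 of 7 endothelial and 1 of 12 fibroblast genes were higher and 1 of 7 satellite glia genes was lower at recovery, and their part was not tested. Both calls were lost without any 1 of the no disease libraries or without recovery replicate 2 or 3, at adjusted p of 0.118 to 0.156 for Fzd1 and 0.0632 to 0.0831 for Lgr4, so no member was called in those 5 fits. Without recovery replicate 1, which stood apart, 9 members were called, with Fzd1, Fzd7, Wnt6, Sfrp2 and Sfrp5 higher and Lgr4, Lgr5, Sfrp1 and Rspo2 lower. The share of all genes called in that fit was not counted, so the larger count is not a result about the members. Among the 9, Wnt6 changed by 0.89 ± 0.12 (adjusted p = 0.00183) without that library and by 0.71 ± 0.17, adjusted p = 0.0551 with it. Its DRG values were 6.90, 7.70 and 8.14 CPM with no disease, then 8.51, 8.25 and 8.11 CPM at peak and 8.94, 14.5 and 13.6 CPM at recovery. Recovery replicate 1 was the lowest of the recovery libraries for this gene.

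Recovery against peak gave no calls among the members in DRG, where 0.0343% of all tested genes were higher and 0.103% lower by edgeR. At an unadjusted p under 0.05, 7 members were higher and 2 lower, beside 1204 higher and 1238 lower of the 17514 genes tested. DESeq2 called 1 member and limma-voom 0. The lowest adjusted p was that of Frzb (0.51 ± 0.10, adjusted p = 0.0978), at 46.5, 44.8 and 41.7 CPM at recovery and 27.5, 30.9 and 34.8 CPM at peak. Without recovery replicate 1, 7 members were called, with Wnt6, Frzb, Sfrp5, Fzd7 and Rspo3 higher and Lgr5 and Lgr6 lower. The share of all genes called in that fit was not counted here either. Without that library Lgr6 changed by -1.51 ± 0.36 (adjusted p = 0.0292), against -1.18 ± 0.35, adjusted p = 0.222 with all libraries.

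The change at peak was compared directly between the tissues as the nerve change minus the DRG change. It was positive for 2 members and negative for 10 of the 42, where 6.53% of all tested genes were positive and 9.36% negative, and the median member difference was -0.63, against -0.08 over all genes. Wnt2b gave -1.61 ± 0.21, adjusted p = 2.10e-04. In DRG it had 12.7, 11.9 and 10.9 CPM at peak and 11.3, 13.4 and 10.4 CPM with no disease. Fzd3 gave -0.82 ± 0.12, adjusted p = 4.33e-04, with 67.5, 73 and 68.6 CPM in DRG at peak and 59.4, 67.6 and 62 CPM with no disease. Rspo1 gave -1.14 ± 0.22, adjusted p = 0.00351, with 6.55, 4.38 and 5.83 CPM and 4.75, 5.49 and 5.78 CPM in DRG at peak and with no disease. In DRG each of them overlapped between the 2 stages, while in nerve each fell.

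Of the inhibitors, Sfrp1 (-0.86 ± 0.14, adjusted p = 0.00128), Frzb (-1.64 ± 0.38, adjusted p = 0.00934), Sfrp5 (-1.02 ± 0.26, adjusted p = 0.0144) and Dkk3 (-0.54 ± 0.17, adjusted p = 0.0439) had negative differences. Sfrp5 in DRG had 55.6, 51.5 and 52.3 CPM at peak and 50.7, 49.7 and 61.7 CPM with no disease, and Frzb had 27.5, 30.9 and 34.8 CPM and 32, 38.6 and 36.2 CPM. Both overlapped between these stages in DRG. Wnt9a (-0.79 ± 0.20, adjusted p = 0.0165) and Fzd5 (-0.98 ± 0.30, adjusted p = 0.0354) were also negative, and Lgr5 (1.32 ± 0.32, adjusted p = 0.0112) and Tcf7 (1.18 ± 0.35, adjusted p = 0.031) positive. Lgr5 in DRG had 13.3, 10.4 and 10.9 CPM with no disease, then 10.6, 12.8 and 9.17 CPM at peak and 9.64, 7.48 and 6.30 CPM at recovery, so that its peak level in nerve of 12.1 ± 4.09 CPM was near its DRG level of 10.8 ± 1.81 CPM at peak. Lgr6, which rose in both tissues, had a difference of 0.29 ± 0.57, adjusted p = 0.762, and Wif1 one of 4.35 ± 1.5, adjusted p = 0.0595; neither passed the threshold, which does not show that the changes were alike.

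Rspo2 also gave a negative difference (-2.34 ± 0.69, adjusted p = 0.0324), from nerve values of 0.224, 0.217 and 0.233 CPM at peak and 2.69, 0.444 and 0.374 CPM with no disease. The high no disease value was replicate 1, the library with a sensory neuron marker sum of 466 CPM against 158 and 114 CPM in the others. Without it the difference was -0.71, adjusted p = 0.414, and the call was also lost without any 1 of the nerve peak libraries or without DRG no disease replicate 1 or 3 (0.0506 to 0.0675). The call of Fzd5 was lost in 7 fits with 1 library left out (nerve no disease replicate 1 or 3, nerve peak replicate 1 or 2, DRG no disease replicate 1 or 2, DRG peak replicate 1; 0.0535 to 0.103). That of Tcf7 was lost in 8 (nerve no disease replicate 1 or 2, nerve peak replicate 2, any DRG no disease library, DRG peak replicate 1 or 2; 0.0505 to 0.0714). That of Dkk3 was lost in 9 (nerve no disease replicate 2 or 3, nerve peak replicate 1 or 2, any DRG no disease library, DRG peak replicate 2 or 3; 0.0508 to 0.102). Other settings also ended calls. That of Dkk3 was lost with RLE size factors (adjusted p = 0.0591), with no filter (0.139), without ribosomal RNA and mitochondrial genes (0.0848) and with a replicate block (0.0528). Those of Rspo2 (-1.69, adjusted p = 0.113) and Tcf7 (adjusted p = 0.0521) were lost by limma-voom, and that of Fzd5 with no filter (0.0792). Without nerve peak replicate 2 or DRG no disease replicate 1 the count of members called was 8. At recovery no member differed between the tissues by edgeR, where 0.131% of all tested genes were positive and 0.32% negative. At an unadjusted p under 0.05, 1 member was positive and 8 negative, beside 781 positive and 1624 negative of the 17514 genes tested. DESeq2 called 3 members and limma-voom 0. Without DRG recovery replicate 1 edgeR called Wnt6 (-1.23 ± 0.18, adjusted p = 0.00672) and Sfrp2 (-3.01 ± 0.74, adjusted p = 0.0432). The share of all genes called in that fit was not counted.

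Of 76 further genes of the pathway, 74 were tested. In nerve at peak 10 rose and 10 fell, beside 13.8% and 10.8% of all genes, with a median change of -0.06. By role, 1 of 18 genes of cytoplasmic transduction rose and 1 fell, and 1 of 15 nuclear genes rose and 2 fell. Not called were Ctnnb1, which encodes beta-catenin (-0.07 ± 0.08, adjusted p = 0.573), Wls, the carrier of Wnt proteins (0.13 ± 0.10, adjusted p = 0.393), Porcn, which adds their lipid (-0.23 ± 0.24, adjusted p = 0.516), and Znrf3 and Rnf43, which remove Frizzled receptors (-0.10 ± 0.13, adjusted p = 0.621 and -0.54 ± 0.51, adjusted p = 0.478). Changes were seen among feedback genes and reported targets, of which 5 of 11 rose and 4 fell. Nkd2 and Nkd1, which bind Dishevelled and dampen Wnt signalling, rose, Nkd2 with 28.8 ± 6.42 CPM at peak and 6.89 ± 0.675 CPM with no disease (log2 fold change 2.12 ± 0.22, adjusted p = 1.39e-04) and Nkd1 with 27.1 ± 4.08 CPM at peak and 13.5 ± 1.52 CPM with no disease (1.08 ± 0.14, adjusted p = 5.83e-04). Ccnd1, a cyclin that many growth signals induce, rose to 447 ± 67.1 CPM at peak, against 117 ± 12.3 CPM with no disease (1.99 ± 0.13, adjusted p = 1.03e-05). All 8 proliferation markers rose in the same libraries, and the part of proliferation in this change was not tested. Apcdd1, a membrane inhibitor of the pathway, fell (-0.98 ± 0.24, adjusted p = 0.0161), as did Myc (-0.72 ± 0.23, adjusted p = 0.0476), the planar polarity gene Prickle2 (-0.83 ± 0.10, adjusted p = 2.80e-04) and the receptor kinase Musk (-0.67 ± 0.15, adjusted p = 0.00954). Vangl2, another planar polarity gene, rose (0.94 ± 0.17, adjusted p = 0.00311).

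At recovery 1 of the 74 genes, the Wnt receptor Ror1, was lower in nerve than with no disease (-0.73 ± 0.13, adjusted p = 0.033), beside 0.331% of all genes. Against peak, 3 were higher and 11 lower, beside 6.45% and 10% of all genes, with Nkd2 at -1.83 ± 0.21, adjusted p = 5.78e-04, Ccnd1 at -1.52 ± 0.12, adjusted p = 1.08e-04, Bambi at -1.04 ± 0.21, adjusted p = 0.0109 and Vangl2 at -0.98 ± 0.16, adjusted p = 0.00403 among the lower and Apcdd1 at 0.98 ± 0.24, adjusted p = 0.0234, Prickle2 at 0.71 ± 0.10, adjusted p = 0.00127 and Musk at 0.49 ± 0.15, adjusted p = 0.0475 the higher. In DRG 7 rose and 1 fell at peak, beside 3.74% and 3.46% of all genes, among them Nkd1 (0.71 ± 0.15, adjusted p = 0.0214), Nkd2 (0.74 ± 0.18, adjusted p = 0.0399), Ccnd1 (0.90 ± 0.15, adjusted p = 0.00866), the co-repressor Tle3 (0.73 ± 0.10, adjusted p = 0.00431) and the secreted inhibitor Draxin (1.51 ± 0.30, adjusted p = 0.0165); Cby1, which binds beta-catenin, fell (-0.40 ± 0.11, adjusted p = 0.0494). At recovery, beside 2.09% higher and 0.799% lower of all genes, 4 were higher in DRG than with no disease, Ccnd1 (1.11 ± 0.15, adjusted p = 0.0128), Nkd1 (0.91 ± 0.15, adjusted p = 0.0211), Apcdd1 (0.73 ± 0.16, adjusted p = 0.0406) and Tle3 (0.54 ± 0.10, adjusted p = 0.028), and 1, Tspan12, which works with Fzd4 in norrin signalling, was lower (-0.33 ± 0.08, adjusted p = 0.0468). The difference of the tissues at peak was called for 11 of the 74, 5 positive and 6 negative, beside 6.53% and 9.36% of all genes. Nkd2 (1.32 ± 0.29, adjusted p = 0.00773), Bambi (1.19 ± 0.26, adjusted p = 0.00663), Ccnd1 (1.03 ± 0.20, adjusted p = 0.00402) and Ptk7 (0.94 ± 0.23, adjusted p = 0.0125) were positive. Apcdd1 (-1.43 ± 0.32, adjusted p = 0.00856), Tnfrsf19 (-1.05 ± 0.25, adjusted p = 0.0115), Bcl9l (-1.04 ± 0.30, adjusted p = 0.0274) and Prickle2 (-1.02 ± 0.15, adjusted p = 3.91e-04) were negative. With no disease 37 of the 74 were higher and 29 lower in nerve than in DRG, beside 37.0% and 36.7% of all tested genes.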

How the data were processed

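Bulk RNA was sequenced from nerve and DRG in 6 groups of 3 libraries. The authors deposited raw read counts per gene for 28684 genes, a normalised signal (each library's counts scaled by 1 factor, as checked here), and a table of comparisons with a log2 ratio and a q-value (adjusted p-value) per gene, per the file headers. STAR 2.6.1a, kallisto 0.44.0 and Bowtie2 with builds GRCm38 and mm10 are named, per the submitters' processing notes; the counting tool and use of strand were not stated there, and without strand the counts of Fzd6, Wnt5a and Wnt7b may include reads of an overlapping gene (Gm26704, Gm2670 and AU022754). All 52 members were found in GENCODE vM21 with the same symbol. Promoters are from RefSeq on GRCm38.p6.

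Genes with at least 10 counts in 3 libraries were fitted in edgeR 4.0.16 (R 4.3.3) with TMM scaling and the quasi-likelihood F test, 9 libraries per tissue; tissue differences used all 18. P-values were adjusted by Benjamini-Hochberg over 17514 genes. The SE is the log2 fold change divided by the square root of F. Alternatives used DESeq2 1.42.0, limma-voom 3.58.1, other scaling and filters, a replicate block, and each library left out. The fit was tested on simulated data. Counts limit the precision of members such as Wif1, whose intervals cover counting error only.

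The members and lists were chosen with earlier results of these data known. Values in every library are given for members called in any comparison within a tissue and for Wif1, Axin2, Lef1, Tcf7, Lrp5 and Lrp6, the others by ranges and counts; of the other pathway genes, up to 4 called each way per comparison with a mean of at least 1 CPM, and always Ctnnb1, Wls, Porcn, Znrf3, Rnf43 and Nkd1. Values of members outside that rule (Rspo2, and means of Wnt5a) are given where a result turned on them, chosen after their values were seen.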

Additional observations from a re-analysis of the deposited data

Results flagged for a closer look

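The change at peak differed between nerve and DRG for 12 members by the interaction test in edgeR, each the nerve change minus the DRG change on the log2 scale. The difference was positive for Lgr5 (1.32) and Tcf7 (1.18). It was negative for Rspo2 (-2.34), Frzb (-1.64), Wnt2b (-1.61), Rspo1 (-1.14), Sfrp5 (-1.02), Fzd5 (-0.98), Sfrp1 (-0.86), Fzd3 (-0.82), Wnt9a (-0.79) and Dkk3 (-0.54). Those of Frzb, Wnt2b, Rspo1, Sfrp5, Sfrp1, Fzd3, Wnt9a and Lgr5 kept an adjusted p under 0.05 in all 19 alternative settings tried. That of Rspo2 was -0.71 (adjusted p = 0.414) without nerve no disease replicate 1. No cause was tested for any of them.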

How the results depend on the processing

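Of 87 values called for members over the 9 comparisons, 63 were called in every alternative, 24 were lost in at least 1 and none changed sign. The count of members called moved by more than 1.5 times as follows. For recovery against no disease in nerve it was 1, but 3 by DESeq2, 2 in a fit of all 18 libraries, 4 at a q-value under 0.05 in the authors' deposited table, and 0 to 2 with 1 library left out. For recovery against peak in nerve it was 14, and 9 to 17 with 1 library left out. For DRG at peak it was 4, but 7 in the authors' deposited table and 1 to 4 with 1 library left out. For DRG recovery against no disease it was 2, but 4 without a filter, 4 by DESeq2, 4 in a fit of all 18 libraries, 1 with the replicate block and 0 to 9 with 1 library left out. For DRG recovery against peak it was 0, but 1 without a filter, 1 by DESeq2 and 0 to 7 with 1 library left out. For the tissue difference at recovery it was 0, but 3 by DESeq2, 1 with the replicate block and 0 to 2 with 1 library left out. At peak in nerve the count was 17 to 26 over all alternatives. There the authors' deposited table called 18 members, 17 of them also called here. It did not call Wnt6 (q-value 0.121), Wnt10a (0.0737) and Fzd2 (0.138). For recovery against peak in nerve it called 15, with 13 shared, and did not call Fzd1 (0.0796). For DRG recovery against no disease it called 3, with 1 shared. The causes of these moves were not tested, and fits with 1 library left out also have fewer libraries. Shares of all genes called were not counted for the alternatives.

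Uncalled log2 fold changes near 0 changed sign with 1 library left out. In nerve at peak the range was -0.50 to 0.059 for Lef1 and -0.13 to 0.029 for Lrp6. In nerve at recovery it was -0.17 to 0.39 for Lef1 (-0.0023 without recovery replicate 1), -0.089 to 0.068 for Lrp6 and -0.12 to 0.055 for Lrp5. In DRG at peak it was -0.064 to 0.21 for Axin2 and -0.041 to 0.42 for Lrp5, and for DRG recovery against peak -0.10 to 0.048 for Lrp6 and -0.092 to 0.39 for Lrp5. Same-numbered libraries of a tissue did not deviate together (correlations of -0.28 to 0.25), so replicate numbers were not taken as pairs. Nerve and DRG libraries of the same stage and number had correlations of -0.062 to 0.14. The tests between tissues took them as independent, and the labels do not say whether they share animals. With the replicate block the calls of Wnt10a in nerve at peak, Tcf7 in nerve at recovery against peak, Fzd1 in DRG at recovery and Dkk3 between the tissues were lost (adjusted p of 0.0691, 0.0619, 0.0767 and 0.0528).

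With 3 libraries per group, members with few counts, such as Wif1, Rspo4 and Wnt7b, have wide errors, and differences that missed the threshold were not detectable at this depth and number rather than shown to be absent. Cell type marker sums moved with disease stage in nerve, and these bulk counts cannot place a change in a cell type.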
